A study of Mus musculus with 8 samples.

Results

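The genes described are 10 markers of tissue-resident and monocyte-derived macrophages: Timd4, Lyve1, Folr2, Cd163, Mrc1, Ccr2, Cx3cr1, Csf1r, Adgre1 (named Emr1 on the array) and Mertk. They were taken by gene name, which gave 14 of the 55681 probes, for 10 of the 34797 gene names on the array. A single probe reads each of 7, and several probes read 3 (Csf1r by 3 probes, Cx3cr1 and Adgre1 by 2 each). All probes are given, and the call for a gene is that of its brightest probe, the one with the highest mean over the 8 arrays. The series title concerns a change of atrial appendage macrophage precursors into c-kit+/CD45- cells, and the question here is which macrophage markers each group carried.
The arrays were 1-colour (Cy3) Agilent mouse expression arrays, 2 per group, on a single slide with a single scan date. Passage 8 cells were descendants, at the 8th passage, of sorted c-kit+/CD45+ cells. CD45-negative cells were c-kit+/CD45- primary cells sorted from cultured left atrial appendage after strong digestion (0.25% trypsin with 0.1% collagenase D). CD45-positive cells were c-kit+/CD45+ primary cells sorted from cultured left atrial appendage after weak digestion (0.05% trypsin with 0.1% collagenase D). The appendages came from C57BL/6 mice aged 8 to 12 weeks. The left ventricle group was whole left ventricular tissue from 12-week-old mice of the same strain, whose RNA was isolated with Tri-reagent in place of the column kit used for cells, with no culture or sort. CD45 status and digestion strength changed together, so they cannot be told apart. Nothing says that the replicates came from separate mice or cultures, so the p-values measure the spread between these arrays, which may be technical.

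Macrophages of the heart are a mix of long-lived resident cells, which renew themselves in the tissue, and cells that keep arriving as blood monocytes. Resident cells are recognised by scavenging and clearance receptors: Timd4 binds phosphatidylserine on dying cells, Lyve1 binds hyaluronan, Folr2 binds folate, Cd163 takes up haemoglobin bound to haptoglobin, and Mrc1 is the mannose receptor. Ccr2 is the receptor by which monocytes leave the marrow towards CCL2. Cx3cr1 is the fractalkine receptor, Csf1r receives the survival signals CSF1 and IL-34, Adgre1 is the F4/80 antigen, and Mertk is a kinase that engages GAS6 and protein S on dying cells. Lyve1 also marks lymphatic endothelium.

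The start regions of these genes are shown because the members were found to divide into genes that were bright in CD45-positive cells, such as Cx3cr1, Folr2 and Mrc1, and genes that were at background there, such as Timd4. Promoters in the RefSeq table of build GRCm38.p6 matched 7 of the 10 members, with 8 promoters. The 250 bases before the start are printed 5′ to 3′ on the gene's strand: Cx3cr1 at chr9:120068297-120068546 (minus strand), the upstream start of Folr2 at chr7:101857191-101857440 (minus strand), Mrc1 at chr2:14229164-14229413 (plus strand) and Timd4 at chr11:46810549-46810798 (plus strand). Capitals mark a motif match.
Cx3cr1: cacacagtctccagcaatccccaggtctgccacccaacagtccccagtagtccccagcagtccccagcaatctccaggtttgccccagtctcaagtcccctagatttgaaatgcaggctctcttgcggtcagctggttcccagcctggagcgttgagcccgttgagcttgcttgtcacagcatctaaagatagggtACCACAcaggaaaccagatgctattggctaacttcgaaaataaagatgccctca
Folr2: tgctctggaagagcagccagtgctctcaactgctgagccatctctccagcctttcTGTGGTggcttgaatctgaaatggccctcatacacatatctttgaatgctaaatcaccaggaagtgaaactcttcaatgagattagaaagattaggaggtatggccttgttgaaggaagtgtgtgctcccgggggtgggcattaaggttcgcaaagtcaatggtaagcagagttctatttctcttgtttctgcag
Mrc1: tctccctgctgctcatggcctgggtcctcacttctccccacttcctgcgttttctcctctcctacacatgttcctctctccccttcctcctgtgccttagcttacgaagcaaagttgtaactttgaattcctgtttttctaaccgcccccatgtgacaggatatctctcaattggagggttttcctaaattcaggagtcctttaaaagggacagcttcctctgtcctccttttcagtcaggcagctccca
Timd4: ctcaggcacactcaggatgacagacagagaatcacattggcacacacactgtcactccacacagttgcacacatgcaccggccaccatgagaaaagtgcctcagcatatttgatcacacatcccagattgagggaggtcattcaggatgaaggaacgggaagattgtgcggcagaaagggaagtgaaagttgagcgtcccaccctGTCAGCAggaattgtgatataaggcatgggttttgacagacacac
Motifs were searched on both strands from 250 bases before to 50 bases after the start. The RUNX letters TGTGGT were found in 2 of the 8 member promoters and in 16.8% of all 32851 promoters. They lay at positions -195 to -190 from the Folr2 start and, on the opposite strand, at -54 to -49 from the Cx3cr1 start. The MAF letters TGCTGAC was found in 1 of the 8, on the opposite strand at positions -45 to -39 from the Timd4 start, and in 4.67% of all promoters. The PU.1 letters GAGGAAGT (3.2% of all promoters) and the C/EBP letters TTGCNNAA (10.8%) were in none of these 8 windows. None of the 4 motifs overlapped another in these promoters. The Mrc1 window held none of the 4.

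Probe positions are given on mm9, the build of the files. Timd4 was read at chr11:46657173-46657232, Lyve1 at chr7:117994171-117994230, Folr2 at chr7:108988771-108988830, Cd163 at chr6:124270436-124270495 and Mrc1 at chr2:14253273-14253332. Ccr2 was read at chr9:124022948-124023007 and Mertk at chr2:128627867-128627926. The brighter Cx3cr1 probe (A_55_P2007964) lies at chr9:119957811-119957870 and the other (A_52_P99810) at chr9:119959018-119959077. The brighter Adgre1 probe (A_55_P2144386) lies at chr17:57622868-57622927 and the other (A_55_P2018934) at chr17:57620350-57620409. The 3 Csf1r probes lie on chromosome 18, the brightest (A_55_P2025078) at 61290725 to 61290784, A_55_P2025073 at 61278661 to 61278720, and A_52_P602091, over 61289398 to 61289758, a span longer than the 60 bases of the probe. The files tie each probe to a RefSeq transcript of its gene, and exon, intron or UTR annotation was not used here.

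Levels are log2 signal minus the 75th percentile of the same array, so 0 is that percentile and 1 unit is 2-fold. A probe is called well above background as the scanner software flagged it. That percentile was a signal of 426 to 976, 51.5% to 69.9% of spots were well above background, and no spot was saturated. Ptprc, the gene of CD45, read -5.57 and -5.18 in passage 8 cells, -5.52 (not well above background) and -3.34 in CD45-negative cells, 2.04 and 1.93 in CD45-positive cells, against -2.33 and -2.89 in left ventricle. Kit, the gene of c-kit, was not well above background on CD45-negative replicate 1 (-6.34) and read -1.55 on replicate 2, against -3.57 and -3.33 in CD45-positive cells, against -1.48 and -2.48 in left ventricle. No array of these 2 sorted groups read higher in Kit than both left ventricle arrays, and CD45-negative replicate 2 lay between them. Kit was well above background on both passage 8 arrays. These are RNA levels and do not test the c-kit sort. The 6 genes that macrophages share with other leukocytes, called pan-macrophage genes here (Ptprc, Tyrobp, Fcer1g, Laptm5, Aif1 and Cd68) had a mean level of -4.88 and -3.83 in passage 8 cells, -3.00 and 0.54 in CD45-negative cells, 5.53 and 5.48 in CD45-positive cells, against 0.49 and -0.05 in left ventricle. Ptprc and the other 5 genes thus followed the CD45 label, and CD45-negative replicate 2 stood apart from replicate 1, which is why the CD45-negative replicates are given apart throughout. As these are bulk samples, fewer macrophages and less RNA per macrophage cannot be told apart.

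**Figure D1:**
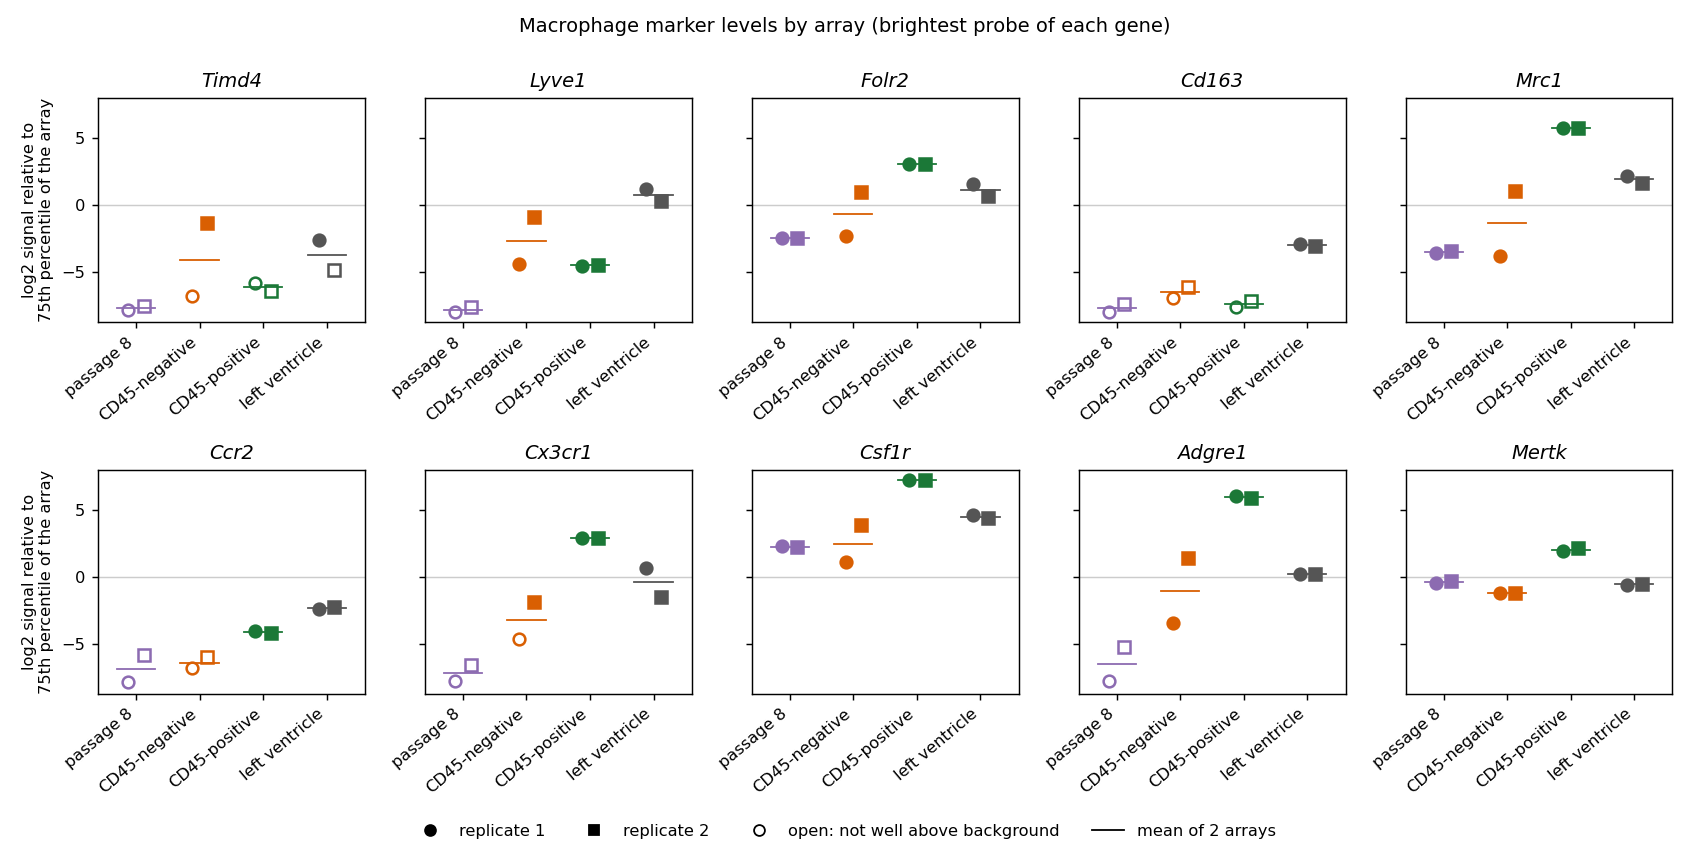
Log2 signal of the brightest probe of each marker, relative to the 75th percentile of its array, on the 2 arrays of each group (circle for replicate 1, square for replicate 2, open symbol where the probe was not well above background, line for the mean). Folr2, Mrc1, Cx3cr1, Csf1r, Adgre1 and Mertk are highest in CD45-positive cells, Lyve1, Cd163 and Ccr2 in left ventricle, and 7 of the 10 genes lie more than 2 units higher on CD45-negative replicate 2 than on replicate 1.

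The resident markers were not all found together. Timd4 read -7.82 and -7.47 in passage 8 cells, -6.78 and -1.32 in CD45-negative cells, -5.78 and -6.36 in CD45-positive cells, against -2.60 and -4.82 in left ventricle. It was well above background on 2 of the 8 arrays, CD45-negative replicate 2 and left ventricle replicate 1, so no group had it on both arrays and no comparison of it was tested. CD45-negative replicate 2 held the highest Timd4 level of the study, with a processed signal of 171 against 4.74 on replicate 1.

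Lyve1 read -7.93 and -7.61 in passage 8 cells, where it was not well above background, and -4.36 and -0.92 in CD45-negative cells. It read -4.51 and -4.46 in CD45-positive cells, against 1.19 and 0.32 in left ventricle. Left ventricle was therefore highest, and the CD45-negative arrays lay above the CD45-positive ones, on replicate 1 only narrowly, at -4.36 against -4.46. Lyve1 was lower in all 3 cell groups than in left ventricle: by at least 88.1-fold in passage 8 cells (adjusted p = 0.00173), with a log2 difference of -3.39 ± 1.05 (SE) in CD45-negative cells (adjusted p = 0.0414) and of -5.24 ± 1.05 in CD45-positive cells (adjusted p = 0.01), all by limma's moderated test with Benjamini-Hochberg adjustment over all probes tested. Every "at least" fold compares the brighter group's mean with the lowest signal of any probe well above background on the dimmer arrays, or the probe's own signal where that was higher.

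Folr2 read -2.46 and -2.46 in passage 8 cells, -2.28 and 0.96 in CD45-negative cells, 3.08 and 3.07 in CD45-positive cells, against 1.58 and 0.68 in left ventricle. CD45-positive cells were highest on both arrays, left ventricle next, and CD45-negative replicate 2 lay within the range of the left ventricle arrays. Mrc1 read -3.59 and -3.43 in passage 8 cells, -3.78 and 1.08 in CD45-negative cells, 5.73 and 5.76 in CD45-positive cells, against 2.19 and 1.65 in left ventricle. The CD45-positive arrays were again highest, and CD45-negative replicate 1 lay below both passage 8 arrays while replicate 2 lay above them.

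Cd163 read -7.94 and -7.38 in passage 8 cells, -6.89 and -6.06 in CD45-negative cells, and -7.57 and -7.14 in CD45-positive cells, not well above background on any of these 6 arrays. It read -2.86 and -3.03 in left ventricle, where both arrays were above background. It was at least 6.78-fold lower in passage 8 cells (adjusted p = 0.000456), at least 3.19-fold lower in CD45-negative cells (adjusted p = 0.00106) and at least 5.41-fold lower in CD45-positive cells (adjusted p = 0.000567) than in left ventricle by limma. CD45-positive cells thus carried Mrc1 and Folr2 well above background but neither Cd163 nor Timd4.

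The receptors tied to monocytes differed from each other. Ccr2 read -7.85 and -5.80 in passage 8 cells and -6.82 and -5.99 in CD45-negative cells, not well above background on any of these 4 arrays. It read -4.07 and -4.20 in CD45-positive cells, against -2.38 and -2.24 in left ventricle, where it was highest. Cx3cr1, by its brighter probe, read -7.73 and -6.55 in passage 8 cells and -4.59 and -1.88 in CD45-negative cells, well above background there on replicate 2 alone. It read 2.86 and 2.88 in CD45-positive cells, against 0.66 and -1.47 in left ventricle. The order of the groups was thus left ventricle then CD45-positive cells for Ccr2, and CD45-positive cells then left ventricle for Cx3cr1.

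The general macrophage receptors were brightest in CD45-positive cells. Adgre1, by its brighter probe, read -7.75 and -5.20 in passage 8 cells, -3.47 and 1.43 in CD45-negative cells, 5.99 and 5.90 in CD45-positive cells, against 0.20 and 0.20 in left ventricle. The passage 8 readings of this probe were not well above background, and the CD45-negative arrays lay on either side of the left ventricle arrays. Csf1r, by its brightest probe, read 2.27 and 2.20 in passage 8 cells, 1.07 and 3.84 in CD45-negative cells, 7.20 and 7.19 in CD45-positive cells, against 4.61 and 4.34 in left ventricle. It was well above background on all 8 arrays, and the CD45-negative arrays lay on either side of the passage 8 arrays. Mertk read -0.49 and -0.32 in passage 8 cells, -1.23 and -1.21 in CD45-negative cells, 1.90 and 2.13 in CD45-positive cells, against -0.60 and -0.50 in left ventricle. Mertk was the member whose CD45-negative replicates lay closest, 0.03 apart; its order was CD45-positive, then passage 8 and left ventricle, whose nearest arrays read -0.49 and -0.50, then CD45-negative.

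CD45-negative cells were compared with CD45-positive cells to ask how the 2 sorted primary populations differ. Of the 8 members tested, 6 fell and none rose, where 10.2% of the 21522 gene names tested were called lower and 10.9% higher. Ccr2 and Cx3cr1 were not above background on both CD45-negative arrays. They were tested through CD45-positive cells alone and could hardly come out higher in CD45-negative cells. With both groups required above background, 5 members were called. The falls were -7.09 ± 1.43 for Mrc1 (adjusted p = 0.0195), -6.97 ± 1.61 for Adgre1 (adjusted p = 0.0293), -6.11 ± 1.07 for Cx3cr1 (adjusted p = 0.0132, above background on 1 of 2 CD45-negative arrays), -4.74 ± 0.83 for Csf1r (adjusted p = 0.0131), -3.73 ± 0.99 for Folr2 (adjusted p = 0.0433) and -3.24 ± 0.23 for Mertk (adjusted p = 0.00256), as log2 differences ± SE from limma. The arrays of the 2 groups did not overlap for any of these 6. Lyve1 was 1.85 ± 1.05 higher (adjusted p = 0.249) and Ccr2, not well above background on either CD45-negative array, was at least 1.4-fold lower (adjusted p = 0.0587), both short of the threshold of an adjusted p under 0.05 and a log2 difference of at least 1. All 6 pan-macrophage genes fell as well, with a median of -6.73. Without CD45-negative replicate 1, 8 members passed, Timd4 (adjusted p = 0.0273, with both CD45-positive arrays at background) and Lyve1 (3.57, adjusted p = 0.00841) being higher in CD45-negative cells; without replicate 2, the same 6 passed. In these fits the 1 array left in a group had to be above background alone, which is how Timd4 came to be tested. Without either CD45-positive array 1 member passed, Mertk, and without either left ventricle array 4 did, Folr2 and Adgre1 being lost. Without either passage 8 array Folr2 was lost (adjusted p = 0.0567) and Ccr2 passed (adjusted p = 0.0147).

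**Figure D2:**
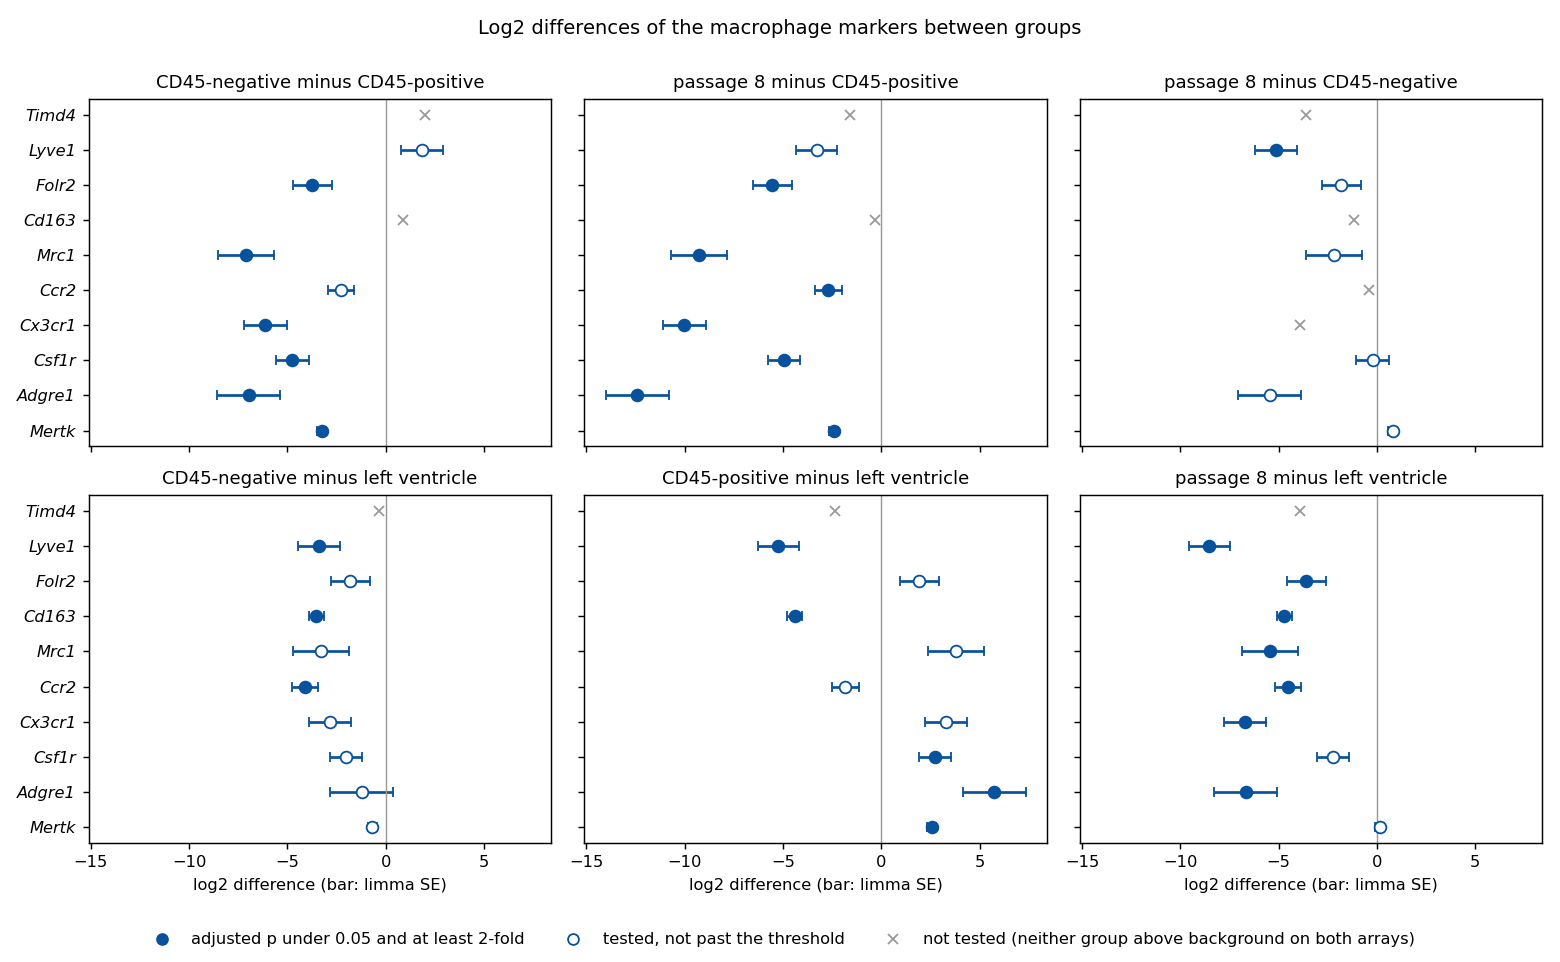
Log2 difference of each marker in the 6 comparisons, with the limma standard error as a bar (filled where past the threshold, open where tested and not past it, grey cross where neither group had both arrays well above background, so that no test was run). The panel of CD45-positive cells against left ventricle has filled points on both sides of 0, Csf1r, Adgre1 and Mertk to the right and Lyve1 and Cd163 to the left, while in the other 5 panels every filled point lies left of 0.

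Passage 8 cells were compared with CD45-positive cells, the kind of cell they descend from. Of the 8 members tested, 7 fell and none rose, where 10.6% of the 23440 gene names tested were called lower and 12.1% higher. Cx3cr1, Ccr2, Lyve1 and the brighter Adgre1 probe were at background on both passage 8 arrays. They were tested through CD45-positive cells alone and could hardly come out higher in passage 8 cells. With both groups required above background, 4 members were called. Adgre1 was at least 2842-fold lower on its brighter probe (adjusted p = 0.00448) and lower by 9.71 ± 1.09 on the log2 scale, 839-fold, on the other (adjusted p = 0.00293), which was above background on 1 of 2 passage 8 arrays. Cx3cr1 was at least 383-fold lower (adjusted p = 0.00249) and Ccr2 at least 2.98-fold lower (adjusted p = 0.0351). Mrc1 fell by 9.25 (SE 1.43, adjusted p = 0.00762), Folr2 by 5.53 (SE 0.99, adjusted p = 0.0122), Csf1r by 4.96 (SE 0.83, adjusted p = 0.00984) and Mertk by 2.43 (SE 0.23, adjusted p = 0.00174) on the log2 scale by limma. Lyve1, at least 2.33-fold lower, did not pass (adjusted p = 0.0702). The members well above background on both passage 8 arrays were 4: Folr2, Mrc1, Csf1r and Mertk. Without CD45-positive replicate 1, 4 members passed (Adgre1, Cx3cr1, Mrc1 and Mertk); without replicate 2, 3 did (Adgre1, Cx3cr1 and Mertk). The Ccr2 call was also lost without passage 8 replicate 1 (adjusted p = 0.0541) and without either left ventricle array (adjusted p = 0.0689). With both CD45-negative arrays left out of the shared spread, a choice made after seeing the data, 8 passed, Lyve1 included (adjusted p = 0.00456).

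Passage 8 cells were also compared with CD45-negative cells. Lyve1 was the 1 member of 6 tested that passed, at least 8.39-fold lower in passage 8 cells (adjusted p = 0.0291), where 6.67% of the 22774 gene names tested were called lower and 6.5% higher. Lyve1 was at background in passage 8 cells and was tested through CD45-negative cells alone. Csf1r differed by -0.21 ± 0.83 (adjusted p = 0.888), Mrc1 by -2.16 ± 1.43 (adjusted p = 0.349), Folr2 by -1.80 ± 0.99 (adjusted p = 0.269) and Mertk by 0.81 ± 0.23 (adjusted p = 0.0647) by limma. Neither Adgre1 probe passed: the brighter one, at background on both passage 8 arrays, was at least 22.7-fold lower there (adjusted p = 0.0747), and the other, above background on 1 of them, was 6.76-fold lower (adjusted p = 0.148). This comparison turned on which CD45-negative array was used. Without replicate 1, 7 members passed, all lower in passage 8 cells (Lyve1, Timd4, Folr2, Mrc1, Cx3cr1, Csf1r and Adgre1), with Csf1r at -1.60 (adjusted p = 0.0133). Without replicate 2, 2 members passed, Lyve1 still lower (adjusted p = 0.0136) and Csf1r higher in passage 8 cells (1.17, adjusted p = 0.0298), so the direction of Csf1r depended on the array. No member passed without either passage 8, either CD45-positive or either left ventricle array.

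Against left ventricle, CD45-negative cells had 3 of 9 tested members lower and none higher, where 19.1% of the 22284 gene names tested were called lower and 20.1% higher. These were Lyve1, Cd163, both given above, and Ccr2, at least 4.95-fold lower (adjusted p = 0.00465). Cd163 and Ccr2 were at background in CD45-negative cells and were tested through left ventricle alone. With both groups required above background, 1 member was called. The other 6 did not pass, with differences from -3.26 ± 1.43 for Mrc1 (adjusted p = 0.111) to -0.67 ± 0.23 for Mertk (adjusted p = 0.0539) by limma. Without CD45-negative replicate 2, 8 members passed, all lower, Adgre1 among them at -3.67 (adjusted p = 0.0449); without replicate 1, the same 3 passed and Adgre1 read 1.23 higher (adjusted p = 0.377). Without either CD45-positive or either left ventricle array 2 passed, Ccr2 and Cd163.

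CD45-positive cells had 3 of 9 tested members higher than left ventricle and 2 lower, where 18.1% of the 23095 gene names tested were called higher and 19.6% lower. The 2 of 9 lower is thus near the share over all names. Adgre1 was 5.74 ± 1.61 higher (adjusted p = 0.0321), Csf1r 2.72 ± 0.83 higher (adjusted p = 0.0420) and Mertk 2.57 ± 0.23 higher (adjusted p = 0.000607), and Lyve1 and Cd163 were lower as given above. Cd163, at background in CD45-positive cells, was tested through left ventricle alone. With both groups required above background, 4 members were called. Mrc1 (3.82 ± 1.43, adjusted p = 0.0775), Cx3cr1 (3.28 ± 1.07, adjusted p = 0.0522), Folr2 (1.94 ± 0.99, adjusted p = 0.166) and Ccr2 (-1.82 ± 0.67, adjusted p = 0.0758) did not pass by limma, although no array of one group overlapped the other for any of the 4. With both CD45-negative arrays left out of the shared spread, 8 members passed: Mrc1 (adjusted p = 0.000754), Folr2 (adjusted p = 0.00986) and Cx3cr1 (adjusted p = 0.0293) were then higher, and Ccr2 still did not pass (adjusted p = 0.0899). Without either passage 8 array Csf1r was lost (adjusted p = 0.0508) and Ccr2 passed as lower (adjusted p = 0.0127). Leaving out either CD45-negative array alone also gave 8. Without either CD45-positive array or left ventricle replicate 1, 2 members passed (Mertk and Cd163), and without left ventricle replicate 2, 3 did (Lyve1 as well).

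Passage 8 cells had 7 of 9 tested members lower than left ventricle and none higher, where 18.7% of the 23986 gene names tested were called lower and 20.2% higher. Lyve1, Cd163, Ccr2, Cx3cr1 and the brighter Adgre1 probe were at background on both passage 8 arrays. They were tested through left ventricle alone and could hardly come out higher in passage 8 cells. With both groups required above background, 2 members were called. Adgre1 was at least 53.0-fold lower on its brighter probe (adjusted p = 0.0190) and 16.3-fold lower on the other (adjusted p = 0.0283). Cx3cr1 was at least 39.4-fold lower (adjusted p = 0.00432) and Ccr2 at least 10.5-fold lower (adjusted p = 0.00345), beside Lyve1 and Cd163. Mrc1 fell by 5.43 (SE 1.43, adjusted p = 0.0253) and Folr2 by 3.59 (SE 0.99, adjusted p = 0.0298) by limma. Csf1r differed by -2.24 ± 0.83 (adjusted p = 0.0736) and passed without the CD45-negative arrays (adjusted p = 0.00121). Mertk differed by 0.14 ± 0.23 (adjusted p = 0.648), with a 95% confidence interval from -0.41 to 0.69. Without passage 8 replicate 1 or either left ventricle array 4 members passed (Lyve1, Cx3cr1, Cd163 and Ccr2). Mrc1 and Folr2 were lost without passage 8 replicate 2 (adjusted p = 0.0670 and 0.0818), and Folr2 without either CD45-positive array (adjusted p = 0.0551). With both CD45-negative arrays left out 8 passed.

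The probes of 1 gene did not always give the same size of difference. Between CD45-negative and CD45-positive cells, Csf1r differed by -7.63 ± 0.93 on A_52_P602091 (adjusted p = 0.00527, above background on 1 of 2 CD45-negative arrays), by -4.74 on the brightest probe and by -1.61 ± 0.22 on A_55_P2025073 (adjusted p = 0.00698). The last of these lay between 0.08 and 0.86 on all 6 arrays other than the CD45-positive ones, which read 2.29 and 2.41, and its CD45-negative arrays read 0.62 and 0.86. A_52_P602091 read -1.97 and -1.98 in passage 8 cells, -5.56 and -2.43 in CD45-negative cells, 3.55 and 3.72 in CD45-positive cells, against 0.33 and 0.38 in left ventricle. All 3 Csf1r probes were called lower in passage 8 and in CD45-negative cells than in CD45-positive cells, and all 3 higher in CD45-positive cells than in left ventricle.

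The Adgre1 probes gave nearly the same contrast of CD45-negative with CD45-positive cells, -6.97 and -6.96 ± 1.09 (adjusted p = 0.00961 on the other probe). That other probe was well above background on passage 8 replicate 2 (-4.23) and not on replicate 1 (-5.79). The dimmer Cx3cr1 probe was not well above background on any passage 8 or CD45-negative array and read -0.13 and -0.06 in CD45-positive cells, against -2.22 and -3.74 in left ventricle. On it, Cx3cr1 was 2.89 ± 0.56 higher in CD45-positive cells than in left ventricle (adjusted p = 0.00909), where the brighter probe missed the threshold.

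**Figure D3:**
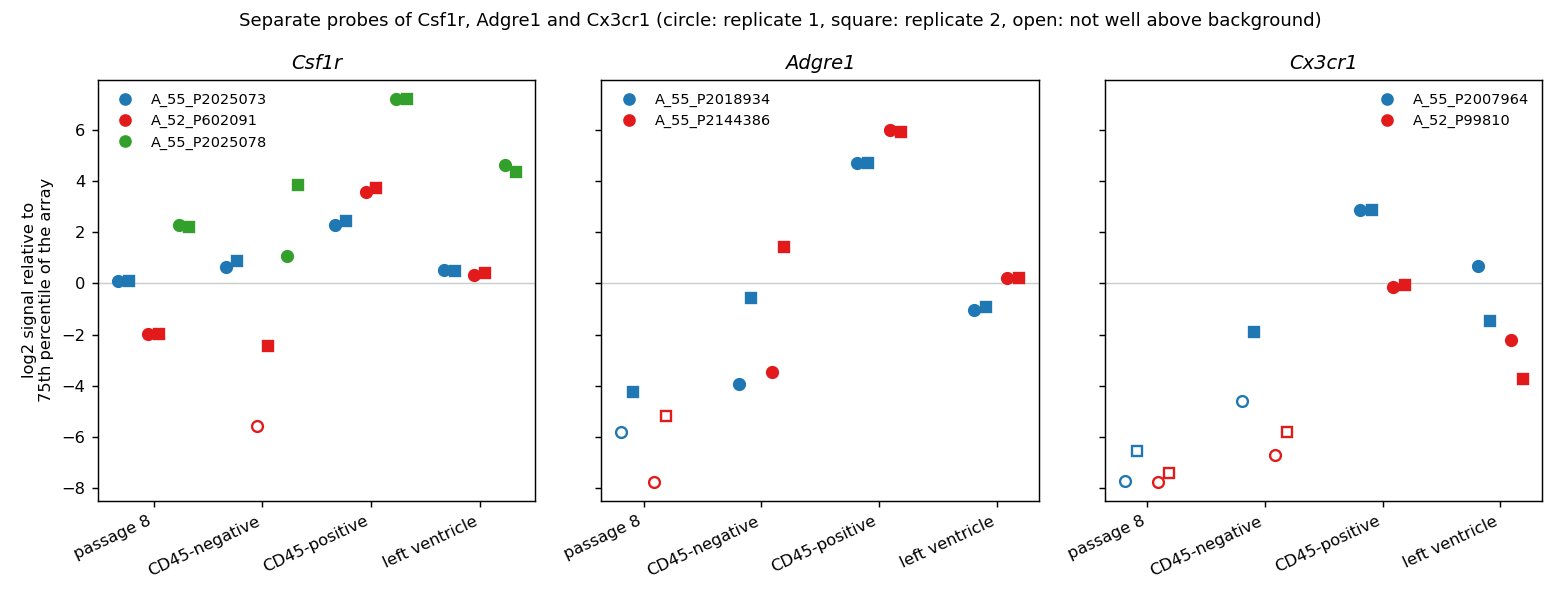
Log2 signal relative to the 75th percentile of the array for each probe of Csf1r, Adgre1 and Cx3cr1, on the 2 arrays of each group (circle for replicate 1, square for replicate 2, open where not well above background). A_55_P2025073 of Csf1r spans a narrower range, from 0.08 to 2.41, than the other 2 Csf1r probes, and every probe is highest in CD45-positive cells.

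The gap between the CD45-negative replicates was large for these genes. Replicate 2 minus replicate 1 was 5.47 for Timd4, 4.91 for Adgre1, 4.86 for Mrc1, 3.44 for Lyve1, 3.23 for Folr2, 2.77 for Csf1r and 2.71 for Cx3cr1. It was 0.83 for Cd163 and for Ccr2, which were at background on both arrays, and 0.03 for Mertk. Among all 26009 probes well above background on both CD45-negative arrays, 15.3% differed by more than 1 and 0.827% by more than 3, with a median difference of -0.03. The corresponding shares over 1 were 3.04% in passage 8 cells, 1.09% in CD45-positive cells and 6.45% in left ventricle. The 6 pan-macrophage genes were all higher on replicate 2, by 2.18 to 5.13.
Among 5 lymphatic endothelium markers, 2 of 5 were well above background on CD45-negative replicate 1 and 3 of 5 on replicate 2, against 1 of 5 on each CD45-positive and each passage 8 array and 4 of 5 and 5 of 5 in left ventricle. Reln, a secreted matrix protein, read -6.79 at background on CD45-negative replicate 1 and -0.54 on replicate 2, and Mmrn1, a multimerin, -6.78 at background and -1.38. Prox1, the factor that defines lymphatic identity, was not well above background on either, at -6.86 and -6.12, and read -0.54 and -0.37 in left ventricle. Flt4 went the other way, at -4.35 on CD45-negative replicate 1 and -4.88, not well above background, on replicate 2. Pdpn read 5.17 and 6.77 on these arrays. The summed level of the list, in multiples of the 75th percentile, was 43.6 to 45.0 in passage 8 cells, 36.0 to 110 in CD45-negative cells, 69.2 to 72.6 in CD45-positive cells and 2.68 to 4.45 in left ventricle, most of it Pdpn outside left ventricle. Vwf, the endothelial von Willebrand factor, was also higher on replicate 2 (1.03 against -3.11 on replicate 1), while the 8 blood endothelium markers had a median gap of 0.56. The 8 fibroblast markers had a median gap of -0.35, and Lum and Dpt were lower on replicate 2 by more than 2 units. The part of these other cells in the Lyve1 and Timd4 levels was not tested.

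**Figure D4:**
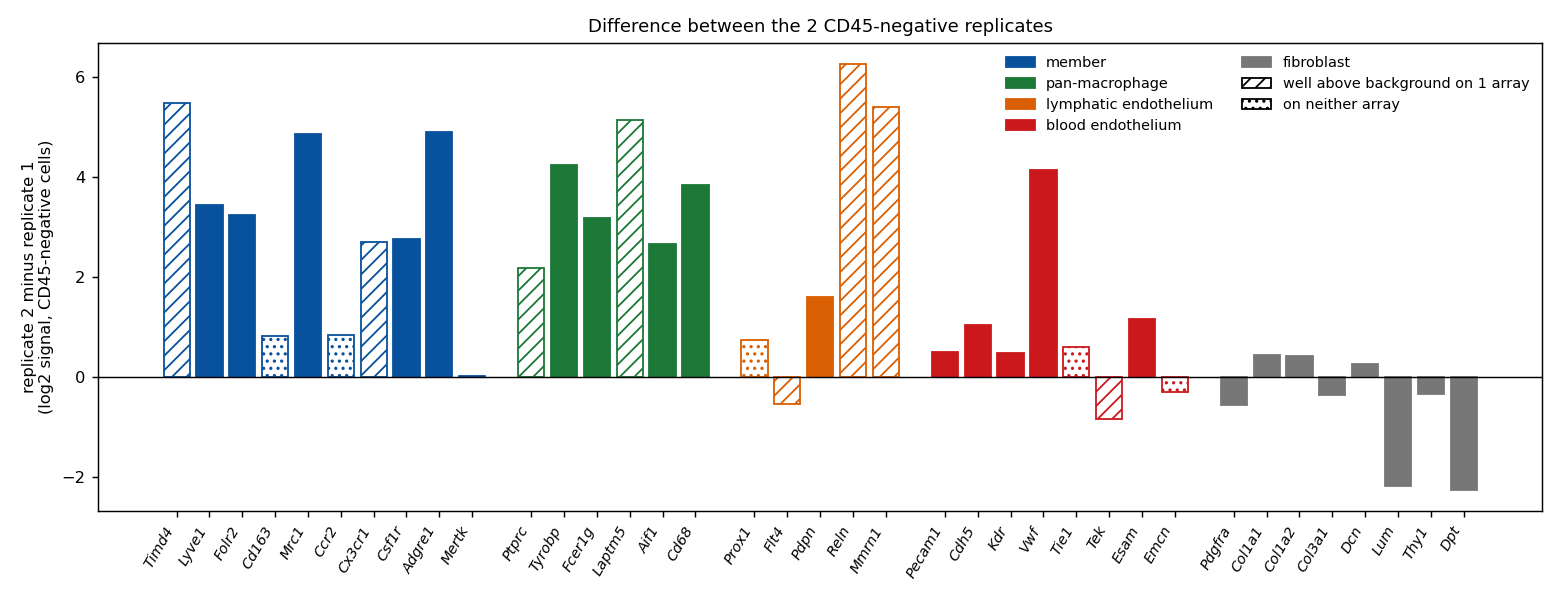
Log2 signal of CD45-negative replicate 2 minus replicate 1 for the brightest probe of each marker (blue), of pan-macrophage genes (green) and of lymphatic endothelium, blood endothelium and fibroblast markers (filled bars where well above background on both arrays, hatched on 1, dotted on neither). The 6 pan-macrophage genes, 7 of the 10 markers, Reln, Mmrn1 and Vwf stand above 2 units. Cd163 and Ccr2, not well above background on either array, stand at 0.83, Mertk stands at 0.03 and no fibroblast bar exceeds 0.44.

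The markers were next read against the pan-macrophage genes, by subtracting from each array the mean of the 6 genes, to describe how unevenly they changed between CD45-positive cells and left ventricle. On this scale Lyve1 differed by -10.53, between means of -9.99 in CD45-positive cells and 0.53 in left ventricle. Ccr2 differed by -7.11, Folr2 by -3.34, Mertk by -2.72, Csf1r by -2.57, Cx3cr1 by -2.01 and Mrc1 by -1.47. Adgre1 differed by 0.45 and was the 1 of these 8 members with a difference above 0. The groups did not overlap for any of these 8, and Timd4 and Cd163 were at background in CD45-positive cells and are not compared. The values are descriptions with no test. The left ventricle arrays also held the levels of other tissue cells: the 8 blood endothelium markers were well above background on both, with summed levels of 54.5 to 66.9 against 12.1 to 14.0 in CD45-positive cells, and the 8 cardiomyocyte markers summed to 3692 to 4002 against 1.29 to 1.46. Their part in the Lyve1 difference was not tested.

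**Figure D5:**
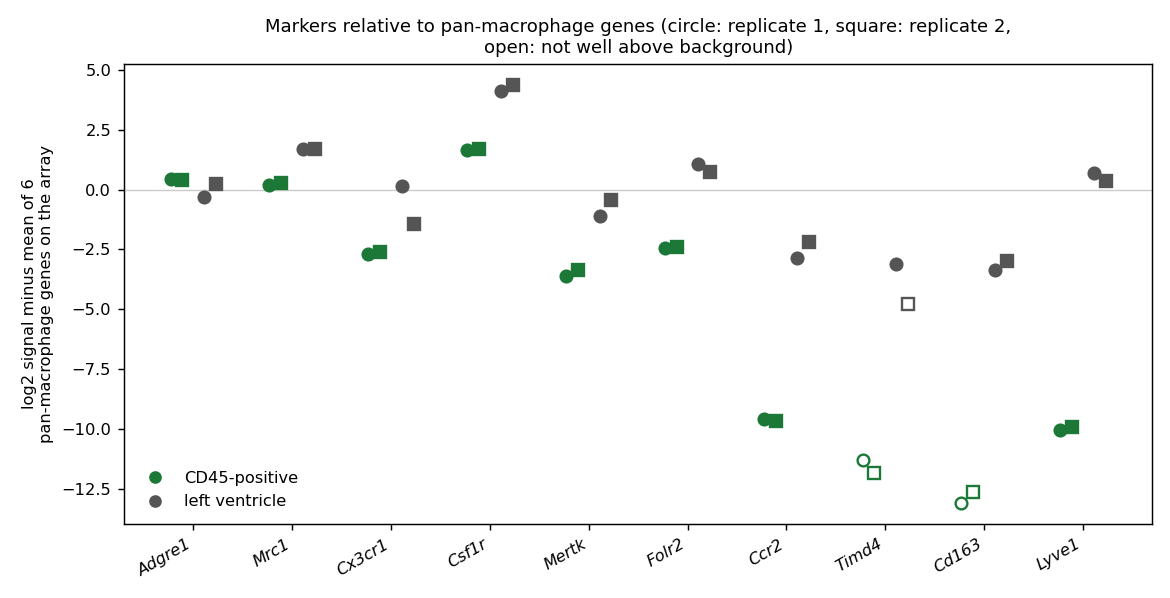
Log2 signal of each marker minus the mean of 6 pan-macrophage genes on the same array, for CD45-positive cells (green) and left ventricle (grey), 2 arrays each (circle for replicate 1, square for replicate 2, open where not well above background); only the groups within a gene are comparable. Adgre1 lies at nearly the same height in both groups, while Lyve1 (-10.53) and Ccr2 (-7.11) lie lower in CD45-positive cells.

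Other genes of resident macrophages, chosen as a list of 16 with earlier results of these data known, went largely with Mrc1 and Folr2. Of the 15 tested, 13 fell in CD45-negative against CD45-positive cells and none rose (median -5.14, against 0.17 over all gene names tested). Among all those names 10.2% were called lower and 10.9% higher. The CD45-negative arrays had 9 and 9 of the 16 genes well above background, the passage 8 arrays 8 and 10. A gene at background on both arrays of a group was tested through the other group alone. In the group at background it could hardly come out higher. Vsig4, a complement receptor, was at least 54.9-fold lower (adjusted p = 0.00277), and Fcna, a ficolin, at least 81.2-fold lower (adjusted p = 0.00509). Cbr2, a carbonyl reductase, fell by 7.59 (SE 1.01, adjusted p = 0.00639, above background on 1 of 2 CD45-negative arrays), and F13a1, the clotting factor subunit made by macrophages, by 6.27 (SE 0.96, adjusted p = 0.00876). Again 13 of 15 fell in passage 8 against CD45-positive cells (median -6.33, with 10.6% of all gene names called lower), F13a1 by at least 2404-fold (adjusted p = 0.000989) and Pf4, a chemokine, by 10.20 (SE 0.59, adjusted p = 0.000660). Between passage 8 and CD45-negative cells, Maf (3.34, adjusted p = 0.00925) and Igf1 (1.32, adjusted p = 0.0228) were higher and F13a1 and Pf4 lower, of 9 tested. There 6.5% of all gene names were called higher and 6.67% lower.
Against left ventricle, CD45-positive cells had 6 of 16 of these genes higher and 2 lower by limma, where 18.1% of all gene names tested were called higher and 19.6% lower. Igf1 (5.07, adjusted p = 0.000146), Pf4 (4.46, adjusted p = 0.00221) and Maf (2.88, adjusted p = 0.00392) were among those that rose. Cd209f, a lectin, was at least 12.0-fold lower (adjusted p = 0.00217) and Slco2b1, an organic anion transporter, fell by 1.57 (SE 0.24, adjusted p = 0.00389). CD45-negative cells had 11 of 16 lower and Igf1 higher (2.35, adjusted p = 0.000981), and passage 8 cells had 12 of 16 lower, with Igf1 (3.67, adjusted p = 0.000298) and Maf (1.79, adjusted p = 0.0214) higher. Of all gene names, 19.1% were lower and 20.1% higher in CD45-negative cells, and 18.7% lower and 20.2% higher in passage 8 cells. The 1 of 16 and 2 of 16 higher were no more than these shares. On the passage 8 arrays all 8 fibroblast markers, and 3 and 5 of the 6 pan-macrophage genes, were well above background. Which cells carried Igf1 and Maf was not tested. In CD45-positive cells resident genes were thus called in both directions, as the members were. The 2 of 16 lower was no more than the share over all names, and the 2 of 9 members lower was near it.

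Of 15 further monocyte-derived genes on the array, 7 of 13 tested rose and 5 fell in CD45-negative against CD45-positive cells (median 1.59). Among all gene names tested, 10.9% were called higher and 10.2% lower. Vcan, a matrix proteoglycan of classical monocytes and also of stromal cells, was 3.90 ± 0.21 higher (adjusted p = 0.00238), and Plac8 3.82 ± 0.50 higher (adjusted p = 0.00616). Lyz2, the myeloid lysozyme, fell by 8.53 (SE 0.95, adjusted p = 0.00441), and Fcgr4, an Fc receptor of patrolling monocytes, by 5.66 (SE 0.54, adjusted p = 0.00326). In passage 8 against CD45-positive cells 2 of 13 rose and 4 fell, and Lyz2 fell by 11.36 (SE 0.95, adjusted p = 0.00133). Against CD45-negative cells 1 of 12 rose and 4 fell in passage 8 cells, where Plac8 fell by 4.98 (SE 0.50, adjusted p = 0.00424). The shares of all gene names higher and lower were 12.1% and 10.6% against CD45-positive cells, and 6.5% and 6.67% against CD45-negative cells. The 2 of 13 and the 1 of 12 higher are thus near the share over all names.
S100a9, a gene of blood monocytes and neutrophils, was not well above background on any array of passage 8, CD45-negative or CD45-positive cells and read -1.75 and -1.93 in left ventricle. It was thus tested through left ventricle alone. CD45-positive cells had 6 of 15 higher than left ventricle, Fcgr4 by 7.57 (SE 0.54, adjusted p = 0.000336, above background on 1 of 2 left ventricle arrays) and Lyz2 by 6.06 (SE 0.95, adjusted p = 0.00410) at the top, and 5 lower, S100a9 by at least 11.6-fold (adjusted p = 0.000415). CD45-negative cells had 6 higher and 3 lower, and passage 8 cells 4 higher and 5 lower, of 15. Over all gene names tested the shares higher and lower than left ventricle were 20.1% and 19.1% for CD45-negative, 18.1% and 19.6% for CD45-positive, and 20.2% and 18.7% for passage 8 cells, so 3 of 15 lower in CD45-negative cells is near the share over all names. Ccr2, whose difference did not pass, lay higher in left ventricle than in CD45-positive cells, as S100a9 did. S100a8, Lyz2 and Fcgr4 were called the other way, higher in CD45-positive cells.

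The ligands of the members were measured on the same arrays. CD45-negative cells had 3 of 11 higher than CD45-positive cells and 3 lower, where 10.9% of all gene names tested were called higher and 10.2% lower. Cx3cl1, the ligand of Cx3cr1, was 4.14 ± 0.54 higher (adjusted p = 0.00613), and Il34, a ligand of Csf1r, 1.89 ± 0.29 higher (adjusted p = 0.00932), in the cells where those receptors were lower; Pros1, protein S, was 1.25 ± 0.23 higher (adjusted p = 0.0148). Ccl12 fell by 6.39 (SE 1.24, adjusted p = 0.0175) and Ccl8 by 4.38 (SE 0.94, adjusted p = 0.0241), both CC chemokines, and Gas6, the ligand of Mertk, by 1.32 (SE 0.31, adjusted p = 0.0294). In passage 8 cells 7 of 11 fell against CD45-positive cells, Ccl12 by at least 1207-fold (adjusted p = 0.00276) and Ccl8 fell by 9.09 (SE 0.94, adjusted p = 0.00230), and Cx3cl1 rose by 2.15 (SE 0.54, adjusted p = 0.0352). Against CD45-negative cells 6 of 11 fell in passage 8 cells, Il34 by 4.61 (SE 0.29, adjusted p = 0.00143). Of all gene names, 10.6% were called lower and 12.1% higher in passage 8 against CD45-positive cells. The shares against CD45-negative cells were 6.67% lower and 6.5% higher. Ccl12, at background on both passage 8 arrays, was tested in the passage 8 comparisons through the other group alone.
Against left ventricle, 8 of 11 ligands rose in CD45-negative cells, 7 of 11 in CD45-positive cells and 5 of 11 in passage 8 cells, where 2 fell. In the same order, 20.1%, 18.1% and 20.2% of all gene names were called higher. In passage 8 cells 18.7% were lower, so 2 of 11 lower is near the share over all names. Ccl2, the main ligand of Ccr2, was 6.44 ± 0.29 higher in CD45-negative cells (adjusted p = 0.000121), 7.39 ± 0.29 higher in CD45-positive cells (adjusted p = 0.000101) and 4.19 ± 0.29 higher in passage 8 cells (adjusted p = 0.000312). Ccl2 was thus high in all 3 cultured groups while Ccr2 was below its left ventricle level on every array of them.

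Relatives of the members, genes of the same families, were read next. In CD45-negative against CD45-positive cells 8 of 18 rose and 6 fell by limma, where 10.9% of all gene names tested were called higher and 10.2% lower. Folr1, the folate receptor of epithelial and other cells, rose by 2.10 (SE 0.38, adjusted p = 0.0145) where Folr2 fell, and Tyro3, a kinase of the Mertk family, rose by 2.5 (SE 0.26, adjusted p = 0.00374). Pdgfra and Pdgfrb, mesenchymal kinases of the Csf1r family, rose by 2.48 (SE 0.38, adjusted p = 0.00909) and 2.28 (SE 0.24, adjusted p = 0.00414). Havcr2, a relative of Timd4 found on macrophages and T cells, fell by 7.35 (SE 1.52, adjusted p = 0.0211, above background on 1 of 2 CD45-negative arrays), and Stab1, a scavenger receptor, by 5.39 (SE 1.29, adjusted p = 0.0327). Ccr1, at background on both CD45-negative arrays and tested through CD45-positive cells alone, was at least 16.3-fold lower (adjusted p = 0.00387). Timd2, another relative of Timd4, was well above background on 1 array of the study, CD45-negative replicate 2, at -2.72; it was chosen for mention after its values were seen.
In passage 8 against CD45-positive cells 2 of 19 rose, Folr1 (2.63, adjusted p = 0.00637) and Axl (1.24, adjusted p = 0.0305), and 5 fell. Among those, Cd5l, a protein secreted by macrophages and a relative of Cd163, fell by 10.98 (SE 2.31, adjusted p = 0.0204), above background on 1 of 2 passage 8 arrays. For passage 8 against CD45-positive cells the shares over all gene names were 12.1% higher and 10.6% lower, so 2 of 19 higher is near the share. None of 15 rose and 7 fell in passage 8 against CD45-negative cells, where 6.5% of all names were called higher and 6.67% lower. Against left ventricle, 10 of 15 rose and none fell in CD45-negative cells, 8 of 18 rose and none fell in CD45-positive cells, and 5 of 16 rose and 3 fell in passage 8 cells. In the same order, the shares of all gene names higher and lower were 20.1% and 19.1%, 18.1% and 19.6%, and 20.2% and 18.7%. The 3 of 16 lower in passage 8 cells is thus near the share over all names. Havcr2 and Ccr1 were at background on both left ventricle arrays. Against left ventricle they were tested through CD45-positive cells alone and could hardly come out lower in those cells. In CD45-positive cells against left ventricle, Havcr2 was at least 244-fold higher (adjusted p = 0.00663) and Cd5l, above background on 1 of 2 left ventricle arrays, was 11.04 ± 2.31 higher on the log2 scale (adjusted p = 0.0117).

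Markers of other blood cells were looked at beside the members. In CD45-positive cells, 3 of 5 T cell markers were well above background but Cd3d and Cd3g were not, 1 or 2 of 4 B cell markers, 3 of 6 mast cell markers, 2 of 6 dendritic cell markers (Flt3 and Zbtb46) and 4 of 6 neutrophil markers without S100a9 or Retnlg. In CD45-negative cells the counts were 2, 1, 1 to 2, 1 to 2 and 2, and in passage 8 cells 2 to 3, 1, 2, 2 to 3 and 1 to 4. In left ventricle they were 4 to 5, 2 to 4, 5, 3 and 4. Dendritic and T cells can also carry Ccr2 and Cx3cr1; Cd209a and Xcr1 were at background on all 8 arrays. Of other tissue lists, 3 of 5 smooth muscle markers were well above background on every cell array and 5 of 5 in left ventricle, and mesothelium markers on 5 of 5 in passage 8 cells, 4 of 5 in CD45-negative cells, 5 of 5 in CD45-positive cells and 5 of 5 in left ventricle. The part of these cells in the members' levels was not tested.

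The log2 levels of the members were correlated across the 8 arrays. Among Folr2, Mrc1, Cx3cr1, Csf1r and Adgre1, Pearson's r lay between 0.91 and 0.99 for the 10 pairs, and with Mertk between 0.68 and 0.99 for 15. Lyve1 had an r of 0.52 with Folr2, 0.28 with Csf1r and -0.23 with Mertk. Ccr2, at background on 4 arrays, had an r of 0.74 with Lyve1, 0.72 with Cx3cr1 and 0.69 with Folr2. The 8 points are 4 groups of 2 on 1 slide, so these values describe mainly the group means. The genes with the most similar pattern, among 14591 candidates, were Nckap1l (r = 0.998), Vav1 and Tyrobp for Adgre1; Fpr2 (r = 0.998), Aif1 and C1qa for Cx3cr1; Ddx26b (r = 0.998), Dok3 and Coro1a for Csf1r; and Arhgap25 (r = 0.994), Cyth4 and Il10ra for Mrc1. For Folr2 they were Stab1 (r = 0.994), Traf1 and Arhgap30, and for Mertk Bach1 (r = 0.991), C2 and H2-Bl. For Lyve1 they were Gja4 (r = 0.991), a gap junction gene of arterial endothelium, Dhh and Btbd11, and for Ccr2 they were Zdhhc23 (r = 0.992), Foxd3 and Ccbp2, the older name of a chemokine scavenger receptor. Timd4 and Cd163 were well above background on 2 arrays each, too few for this measure.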

How the data were processed

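Per the submitters' processing notes the scans went through Agilent Feature Extraction 10.7, and 200 ng of total RNA was labelled per sample, per the labels' protocols. The deposited intensity values used were the scanner's processed signals, background-subtracted and on a linear scale per the file headers. The authors' deposited value table served as an alternative. Its rank correlation with the median signal minus background median of the same array was 1, so its direction is known; the deposited values were taken as log2, and how the authors scaled and centred them stays unknown (column medians 6.09).

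Control and outlier spots were left out, spots of 1 probe averaged, log2 taken and each array's 75th percentile subtracted. A linear model with 1 mean per group over all 8 arrays was fitted per probe with limma 3.58.1 in R 4.3.3 (4 residual degrees of freedom). A probe was tested, two-sided, where either group had it above background on both its arrays, with Benjamini-Hochberg adjustment. A probe at background in 1 group was thus tested only through the other group. It could hardly come out higher in the group at background. Called probes had an adjusted p under 0.05 and a log2 difference of at least 1. For 2 arrays against 2 an exact permutation test of 1 gene gives p = 0.333 at the lowest and was not used. The steps were tested on simulated data.

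Named genes are all 10 members with every probe, up to 4 called genes per direction of each list, the 3 genes most correlated with each member, and genes said to be named after their values were seen. Some list genes that this rule picks are counted in their lists and not reported here by name. The members and lists (ligands, relatives, resident, monocyte-derived, pan-macrophage, other cell types) were chosen with earlier results of these data known. Promoter sequences are from RefSeq, build GRCm38.p6. The alternatives tried were other processing, other fits and leaving out arrays.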

Additional observations from a re-analysis of the deposited data

How the results depend on the processing

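Of 528 values of called members that could be tested under an alternative, none changed sign, 450 kept their side of the threshold and 78 lost it. Part of this was fixed in advance. Other background filters, only the brightest probes, only the arrays compared, or leaving out arrays of other groups do not alter the log2 difference. Its sign could not change there. With no minimum difference no call could be lost. The number of members called changed by over 1.5 times as follows. For CD45-negative against CD45-positive cells (6 members, 6443 probes) it was 3 with only the arrays compared (2517 probes). For passage 8 against CD45-positive cells (7) it was 4 when a probe had to be above background in both groups. For passage 8 against CD45-negative cells (1 member, 4558 probes) it was 2 with normexp background correction, with quantile normalization and in the authors' value table; it was 0 in the stricter background filter (2871 probes) and 0 with only the arrays compared (0 probes by limma, with 7381 probes and 2 members at an unadjusted p under 0.05), and array weights gave 2628 probes. For CD45-negative cells against left ventricle (3) it was 5 in the authors' value table and 1 in the stricter filter. For CD45-positive cells against left ventricle (5) it was 9 with normexp, only the arrays compared or array weights, 8 in the authors' value table or without both CD45-negative arrays (a choice made after seeing the data) and 3 with no filter on dim probes. For passage 8 cells against left ventricle (7) it was 2 in the stricter filter.

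Leaving out 1 array in turn, members called ranged from 1 to 8 for CD45-negative against CD45-positive cells (410 to 8505 probes), from 3 to 8 for passage 8 against CD45-positive cells (2609 to 9031), from 0 to 7 for passage 8 against CD45-negative cells (1107 to 7507), from 2 to 8 for CD45-negative cells against left ventricle (10219 to 14254), from 2 to 8 for CD45-positive cells against left ventricle (7348 to 13276) and from 4 to 8 for passage 8 cells against left ventricle (9549 to 14421). The lone array left was assumed to vary like the other groups. Csf1r in passage 8 against CD45-negative cells reversed to 1.17 without CD45-negative replicate 2 (-1.60 without replicate 1). Normexp moved the median of all probes to 0.36 for CD45-negative against CD45-positive cells and to -0.32 for passage 8 against CD45-negative cells, and the share of called probes that were higher to 62.4% and 29.8%, against 49.9% and 56.0%; the causes were not tested. The deviations of same-numbered arrays had correlations from -0.19 to 0.20. With 2 arrays per group, in which a shared source may be small beside technical spread, this cannot decide whether the numbers pair samples. With the replicate number as a block, 6, 7, 1, 3, 5 and 7 members were called, as without it, over 5847, 7036, 3779, 12334, 12076 and 13134 probes. The 2 arrays per group limit the precision, and dim probes near background have a bound and no level.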
